A study of Mus musculus with 24 samples.

Results

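A set of 37 mouse genes of macrophages and Kupffer cells was followed, out of 18193 genes that were read by at least 1 probe set naming that gene alone. The 37 are known marker and effector genes of these cells, and they were sorted by role into 8 classes, of which 4 genes mark recruited cells, 5 mark resident tissue macrophages and 4 mark Kupffer cells (Clec4f, Timd4, Vsig4 and Marco). Each gene was read from its brightest probe set in a tissue, and all 37 had one. A gene was tested in a tissue where its mean lay at or above the median probe set, a signal of 19.3 in adipose tissue and 13.0 in liver. That left 33 of 37 members among 11613 genes in adipose tissue, without Siglec1, Clec4f, Timd4 and Marco, and 35 of 37 among 11125 genes in liver, without Itgam and Tlr4.

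The study compared mice lacking GPR120, a receptor for long-chain fatty acids encoded by Ffar4, with wild-type mice. Both genotypes shared a mixed 129/Sv and C57BL/6 background and were fed a normal diet (ND) or a high-fat diet (HFD). With 3 mice in each group and both epididymal fat and liver taken, there were 8 groups and 24 arrays from 12 mice. The labels describe the knockout as GPR120 KO, without the part of the gene removed. The age and time on each diet are not given in the sources used here. Sex is not labelled, but the epididymal fat taken from all 12 mice is a tissue of males. The single Ffar4 probe set read 23.1 to 30.5 in adipose tissue of knockout mice on the HFD and 97.3 to 171 in wild-type mice, a log2 difference of -2.27 ± 0.21 (SE, adjusted p = 0.000215). On the ND the means were 34.5 and 64.6. In liver the mean of Ffar4 over all arrays lay below the filter level, so it was not tested. There the knockout mice had the higher signal, against the direction in fat, at 13.5 to 18.3 on the HFD and 21.5 to 36.8 on the ND, beside 0.55 to 1.63 and 1.07 to 17.3 in wild-type mice. The place of this probe set relative to the deleted part is unknown, so it is no check of the allele, and genotypes are given as labelled.

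Macrophages are phagocytes that live in nearly every tissue. Some are long-lived residents seeded early in life and others arise from blood monocytes that enter a tissue, and both depend on the growth factor receptor CSF1R and on the transcription factor PU.1, encoded by Spi1. In fat of obese animals macrophages gather around dying adipocytes, and many of these cells carry CD11c, encoded by Itgax. Kupffer cells are the macrophages of the liver sinusoids and carry receptors for blood-borne particles and bacteria, such as CLEC4F, TIM4, VSIG4 and MARCO.

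PU.1 binds purine-rich sites with a GGAA core in the promoters of many genes of this lineage, so promoter sequences of members from different classes are shown beside the values that follow. Each runs from 250 bases before to 50 bases after the RefSeq transcription start (GRCm38.p6), 5′ to 3′ on the gene's own strand, and capitals mark the hexamer GAGGAA or its reverse complement TTCCTC. From each of the recruited, resident and Kupffer classes, 1 window with the hexamer and 1 without are shown.
Itgam, chr7:128062390-128062689, plus strand: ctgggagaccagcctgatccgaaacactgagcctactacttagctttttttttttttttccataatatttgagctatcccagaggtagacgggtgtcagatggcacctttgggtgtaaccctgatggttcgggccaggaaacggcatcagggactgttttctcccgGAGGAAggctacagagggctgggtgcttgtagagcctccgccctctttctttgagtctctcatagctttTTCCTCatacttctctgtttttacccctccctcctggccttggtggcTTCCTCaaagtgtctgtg
Itgax, chr7:128129300-128129599, plus strand: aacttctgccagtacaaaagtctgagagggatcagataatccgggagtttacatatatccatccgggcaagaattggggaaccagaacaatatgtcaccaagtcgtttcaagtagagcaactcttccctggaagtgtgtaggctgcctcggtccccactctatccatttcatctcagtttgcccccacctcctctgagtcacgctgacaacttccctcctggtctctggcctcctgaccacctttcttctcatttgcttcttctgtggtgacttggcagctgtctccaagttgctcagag
Mrc1, chr2:14229164-14229463, plus strand: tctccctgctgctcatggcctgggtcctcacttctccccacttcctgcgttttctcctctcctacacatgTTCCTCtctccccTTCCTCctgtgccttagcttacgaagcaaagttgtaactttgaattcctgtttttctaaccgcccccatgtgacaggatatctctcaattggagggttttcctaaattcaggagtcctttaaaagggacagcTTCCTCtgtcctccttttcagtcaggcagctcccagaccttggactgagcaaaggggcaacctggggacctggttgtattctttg
Cd163, chr6:124304401-124304700, plus strand: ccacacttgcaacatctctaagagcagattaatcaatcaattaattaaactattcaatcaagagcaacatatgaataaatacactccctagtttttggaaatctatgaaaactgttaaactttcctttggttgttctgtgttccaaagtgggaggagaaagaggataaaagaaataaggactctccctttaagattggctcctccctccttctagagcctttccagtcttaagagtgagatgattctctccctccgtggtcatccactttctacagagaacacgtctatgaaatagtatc
Vsig4, chrX:96293389-96293688, minus strand: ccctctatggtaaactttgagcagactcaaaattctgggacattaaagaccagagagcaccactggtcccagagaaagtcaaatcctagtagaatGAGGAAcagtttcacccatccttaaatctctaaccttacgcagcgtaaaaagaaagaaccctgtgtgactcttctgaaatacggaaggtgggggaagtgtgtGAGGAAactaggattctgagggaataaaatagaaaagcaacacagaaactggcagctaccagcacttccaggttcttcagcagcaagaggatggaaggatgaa
Clec4f, chr6:83656067-83656366, minus strand: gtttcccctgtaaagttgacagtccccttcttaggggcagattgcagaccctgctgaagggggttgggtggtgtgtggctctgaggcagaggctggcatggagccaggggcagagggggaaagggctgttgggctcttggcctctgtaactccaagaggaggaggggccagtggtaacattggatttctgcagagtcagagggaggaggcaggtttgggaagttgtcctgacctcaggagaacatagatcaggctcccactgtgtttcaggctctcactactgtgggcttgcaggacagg
The Itgam and Mrc1 windows held 3 copies each, the Vsig4 window held 2, and the Itgax, Cd163 and Clec4f windows held 0. Windows of 27 of the 37 members were used here, and 17 of their 32 windows (53.1%) held the hexamer on either strand. Among all RefSeq promoters of that length 9289 of 32851 did (28.3%). Of the 18 members with a window that rose in knockout fat on the HFD, as given below, 12 held it and 6 did not, Itgax among them, and of the 5 without a call there 2 did. A match is a string of letters and not evidence of binding, and a window without one says nothing about the factor.

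All 24 arrays had been scaled to the same trimmed mean, 100.03 to 100.05, and their medians ran from 13.5 to 25.8. Other tissue was present on some adipose arrays. Genes of the epididymis epithelium summed to 26497 to 43284 on every ND adipose array and to 18.8 to 83.5 on every HFD adipose array. Sperm genes summed to 16941 and 12837 in ND wild-type mice 686 and 690 against 646 to 993 in the other ND mice, epithelial genes to 1202 in HFD knockout mouse 427, and skeletal muscle genes to 3775 in HFD wild-type mouse 547. The log2 ratio of the 3′ to the 5′ Actb control probe sets, a sign of RNA degradation, was 0.73 ± 0.10 (SD, n = 3) in knockout and 1.44 ± 0.28 in wild-type adipose tissue on the HFD. Lists of markers were read for other cells, and their values stand beside the results they moved with. In whole tissue, fewer cells of a type and less RNA per cell cannot be told apart.

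In epididymal fat on the HFD, most macrophage genes were higher in knockout than in wild-type mice. Of the 33 members tested, 25 rose and 2 fell (adjusted p below 0.05 over all tested genes, limma), while over all 11613 genes 11.1% were called higher and 11.4% lower. The median member was 1.72 higher on the log2 scale, beside -0.03 for all genes. The groups of 3 mice did not overlap for 29 members, with all knockout arrays above all wild-type arrays for 27 (18.3% of all genes) and below them for 2 (19.7% of all genes). The 2 that fell, Cd163 and Lyve1, are both genes of resident macrophages, and the 6 without a call were Ccr2, Lyz2, Aif1, Fcgr2b, Tlr4 and Vsig4. Summed over all 37 members, the signal was 36628 to 55383 in knockout and 12974 to 22429 in wild-type mice. Without mice 427 and 547, whose fat held other tissue, 27 rose and 0 fell, 25 of the calls were shared, and limma gave adjusted p = 0.132 for Cd163 and 0.0639 for Lyve1, while their p ranged from 0.0167 to 0.132 and from 0.00478 to 0.0639 over all alternatives.

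**Figure D1:**
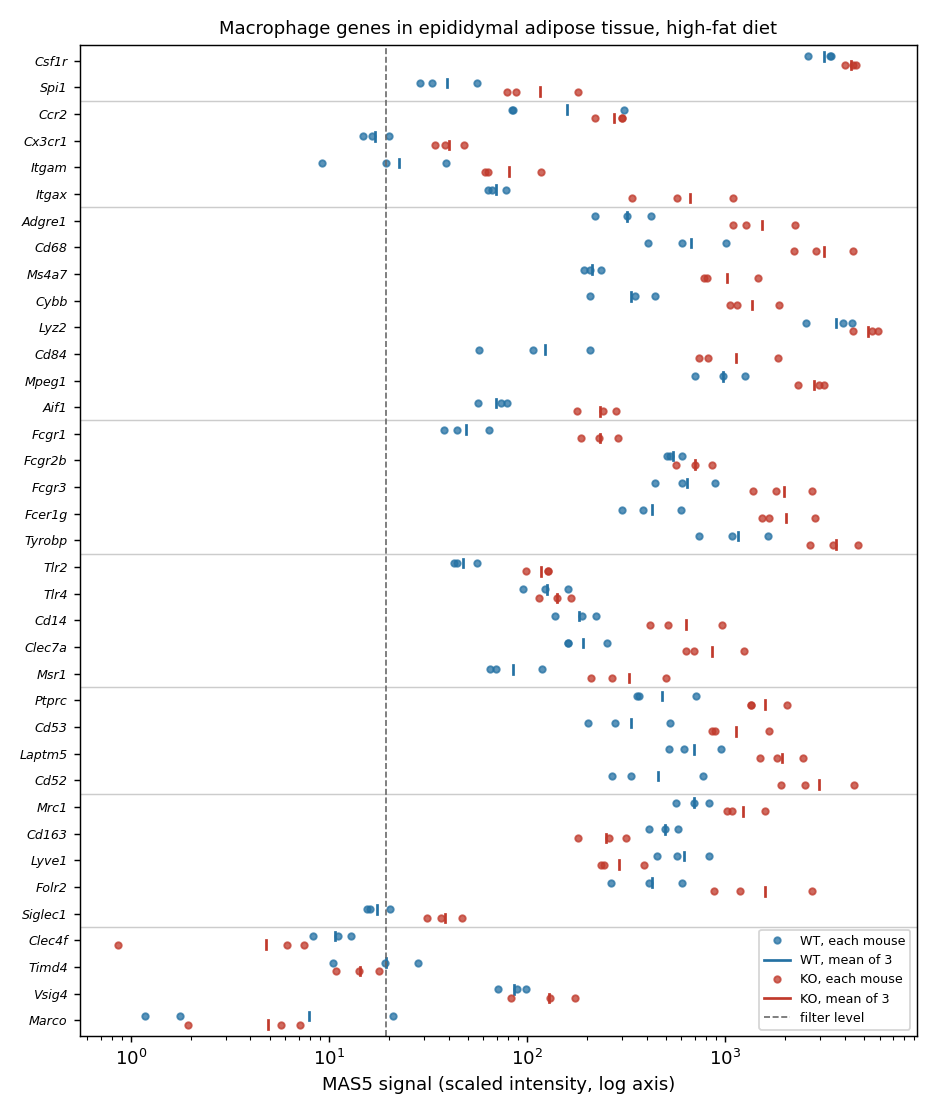
MAS5 signal (log axis) of each of the 37 genes on the 3 knockout (red) and 3 wild-type (blue) HFD adipose arrays, with group means as bars, classes separated by grey lines and the filter level of 19.3 dashed. Knockout points lie to the right of wild-type points for 27 of the 33 tested genes, to the left for Cd163 and Lyve1, and Clec4f, Timd4 and Marco have group means below the filter level.

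Other cell types also differed between these 2 groups of fat samples. All 6 endothelial markers fell, and their sum was 925 to 1389 in knockout and 2852 to 3093 in wild-type mice. Of 7 adipocyte markers, 2 fell (Retn by 2.34 and Pparg by 1.12 on the log2 scale) and 0 rose, with sums of 17768 to 26698 against 26795 to 29221. Neutrophil markers summed to 673 to 1530 in knockout and 186 to 397 in wild-type mice, with 1 of 3 tested called higher (S100a8) and Ngp, Camp, Mpo and Cxcr2 below the filter level on every array of both groups. Mast cell markers summed to 317 to 1063 against 157 to 197, with 2 of 3 tested called higher (Cpa3 and Cma1). Neither of the 2 T and NK cell markers tested was called, no B cell marker was bright enough to test, and 1 of 2 dendritic cell markers fell (Zbtb46). The part of these other cells, of RNA quality and of the other tissue in the member differences was not tested.

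Both genes of the growth factor receptor and lineage factor class rose, with a median log2 difference of 0.99. Spi1, which encodes PU.1, read 88.1, 78.6 and 180 in knockout and 28.6, 56.0 and 33.1 in wild-type mice. The lowest knockout value lay above the highest wild-type value, and the log2 difference was 1.52 ± 0.35 (SE, adjusted p = 0.0113). Csf1r, the receptor for CSF1 and IL-34 that macrophages need to survive, read 4009, 4413 and 4545 in knockout and 2625, 3409 and 3391 in wild-type mice. Its groups did not overlap either, but the difference was small, 0.47 ± 0.14 (adjusted p = 0.0358), and missed the threshold without mouse 428, 429, 546 or 560 (adjusted p = 0.0773, 0.112, 0.132 and 0.0551, within a range of 0.00197 to 0.132 over all alternatives). The 2 dimmer Csf1r probe sets differed by 1.35 and 1.16, so the size for this gene depends on the probe set.

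Of the 4 genes of recruited cells, 3 rose and the median log2 difference was 1.62. Itgax, which encodes the integrin CD11c, read 339, 567 and 1091 in knockout and 63.2, 78.4 and 66.5 in wild-type mice. Every knockout value was well above every wild-type value, and the difference of 3.11 ± 0.41 (adjusted p = 0.000928) was larger than that of any other member except Cd84. Cx3cr1, the fractalkine receptor of patrolling monocytes and some resident cells, read 48.0, 34.3 and 38.2 in knockout and 14.7, 20.0 and 16.5 in wild-type mice. The groups were apart by 1.23 ± 0.22 (adjusted p = 0.00288), and because the wild-type mean of 17.1 lay under the filter level the fold is stated as at least 2.08-fold higher. Itgam, which encodes CD11b, rose by 2.01 ± 0.49 (adjusted p = 0.0137) from a wild-type mean of 22.4, and missed the threshold without mouse 429 (adjusted p = 0.0598, within 0.00404 to 0.0598). Ccr2, the receptor that draws monocytes out of the blood, differed by 1.06 ± 0.44 (adjusted p = 0.109). Wild-type mouse 547, at 307, lay above all 3 knockout mice (220 to 302) for Ccr2 and the other wild-type mice at 83.3 and 85.1, and without mouse 547 limma gave adjusted p = 0.00355, within 0.00355 to 0.349 over all alternatives. A dimmer Ccr2 probe set above the filter level gave -0.13.

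Among the 8 surface and effector genes, 6 rose, with a median log2 difference of 2.12. Ms4a7, a tetraspan membrane protein of macrophages, read 808, 776 and 1457 in knockout and 207, 194 and 237 in wild-type mice. Its wild-type values were tightly grouped, and the difference of 2.19 ± 0.21 had the smallest adjusted p of the 33 members tested (0.000215). Adgre1, which encodes the macrophage marker F4/80, read 1096, 1267 and 2243 against 221, 420 and 318. The groups were apart by 2.24 ± 0.28 (adjusted p = 0.000751). Cd84, an adhesion receptor of the SLAM family, showed the largest difference of the set, 3.26 ± 0.48 (adjusted p = 0.00132), from a mean of 124 to one of 1130. Cd68, a glycoprotein of lysosomes, rose by 2.28 ± 0.36, Cybb, the catalytic subunit of the phagocyte oxidase, by 2.05 ± 0.27 and Mpeg1, which encodes the pore-forming perforin-2, by 1.55 ± 0.24. Lyz2, the lysozyme of myeloid cells, did not reach the threshold at 0.57 ± 0.21 (adjusted p = 0.0735) although its groups were apart, and without mouse 427 or 547 it did (0.0494 and 0.0416, within 0.0259 to 0.248). Aif1, which encodes the actin-binding protein IBA1, was likewise apart (177 to 280 against 56.2 to 79.2) at 1.73 ± 0.75, with an adjusted p of 0.124 in the fit over all 12 adipose arrays and of 0.00776 in a fit on the HFD arrays alone, the lowest of a range that reached 0.257.

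The Fc receptors and their adaptors bind antibody-coated targets and signal through ITAM motifs. Of these 5 genes 4 rose, with a median of 1.68. Fcer1g, the shared γ chain of activating Fc receptors, read 1537, 1660 and 2837 in knockout and 302, 596 and 384 in wild-type mice, 2.24 ± 0.29 higher (adjusted p = 0.00088). For the high-affinity IgG receptor gene Fcgr1, values of 231, 186 and 285 stood against 44.3, 64.0 and 38.0, 2.28 ± 0.33 higher (adjusted p = 0.00116). Neither gene's groups overlapped. The adaptor Tyrobp rose by 1.68 ± 0.28 and Fcgr3, an activating low-affinity receptor, by 1.62 ± 0.29. Fcgr2b, the inhibitory receptor of the family, was at 706 and 545 on average with overlapping groups and a difference of 0.36 ± 0.16 (adjusted p = 0.142).

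The pattern and scavenger receptors recognise microbial products and altered lipoproteins, and 4 of 5 rose, with a median of 1.72. Clec7a, which encodes the β-glucan receptor dectin-1, read 635, 692 and 1241 in knockout and 161, 251 and 161 in wild-type mice. It was 2.13 ± 0.25 higher (adjusted p = 0.000608), with no overlap. Tlr2, a receptor for bacterial lipopeptides, read 98.2, 127 and 127 against 42.9, 55.5 and 44.1. The difference of 1.30 ± 0.20 (adjusted p = 0.00144) was the smallest of the 4 that rose. Cd14, the co-receptor of TLR4, rose by 1.72 ± 0.33, and the scavenger receptor Msr1 by 1.90 ± 0.52, which missed the threshold without mouse 429, 546 or 560 (adjusted p = 0.0976, 0.078 and 0.0792, within 0.00584 to 0.0976). A second Msr1 probe set above the filter level gave 3.05. Tlr4, the endotoxin receptor, averaged 141 in knockout and 126 in wild-type mice with overlapping groups (0.18 ± 0.26, adjusted p = 0.669).

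All 4 membrane genes shared by most leukocytes rose, with a median of 1.79. Ptprc, which encodes CD45, read 1354, 1348 and 2043 in knockout and 358, 711 and 365 in wild-type mice, a difference of 1.77 ± 0.25 (adjusted p = 0.00107). The lysosomal protein gene Laptm5 rose by 1.49 ± 0.23 and the tetraspanin gene Cd53 by 1.80 ± 0.34. Cd52, a small glycoprotein of leukocytes that is also made by the epididymis and coats sperm, read 4446, 1914 and 2534 in knockout and 333, 772 and 267 in wild-type mice. The groups were far apart, 2.77 ± 0.39 (adjusted p = 0.00104), and the highest value came from mouse 427, whose fat held epithelial and sperm genes. Without mouse 427 the difference was 2.43 (adjusted p = 0.00194), and without mice 427 and 547 it was 2.89 (adjusted p = 0.000111), within 0.000111 to 0.0116 over all alternatives.

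Genes of resident tissue macrophages moved in both directions. Mrc1, which encodes the mannose receptor CD206, read 1014, 1074 and 1580 in knockout and 564, 824 and 693 in wild-type mice, and rose by 0.81 ± 0.18 (adjusted p = 0.00834). Folr2, the folate receptor β of perivascular resident macrophages, read 872, 1183 and 2723 against 265, 606 and 414, and rose by 1.80 ± 0.39 (adjusted p = 0.00843). Neither gene's groups overlapped, and mouse 429 was the highest for both. Cd163, the scavenger receptor for haemoglobin bound to haptoglobin, ran the other way at 179, 313 and 259 in knockout and 411, 576 and 493 in wild-type mice. Lyve1, a hyaluronan receptor of resident macrophages near vessels that lymphatic endothelium also carries, read 245, 389 and 236 against 452, 828 and 570. All 3 knockout values lay below all 3 wild-type values for each of the pair, and Cd163 fell by 1.0 on the log2 scale (SE 0.27, adjusted p = 0.0215) and Lyve1 fell by 1.08 (SE 0.25, adjusted p = 0.0108). The other Lyve1 probe set gave -1.35. Cd163 missed the threshold without mouse 427, 429, 547 or 560 (adjusted p = 0.0598, 0.0525, 0.0652 and 0.0637, within 0.0167 to 0.132 over all alternatives). The 6 endothelial markers fell in the same samples, as given above, and their part in the Lyve1 result was not tested. Siglec1, which encodes sialoadhesin, was too dim in adipose tissue to be tested, and read 36.7, 31.0 and 46.8 in knockout and 16.1, 15.5 and 20.3 in wild-type mice, with groups apart and at least 1.98-fold higher in knockout mice against the filter level. Its dimmer probe sets gave -0.11 and -0.56 with overlapping groups.

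Kupffer genes were dim in fat. Clec4f read 7.44, 6.12 and 0.86 in knockout and 12.9, 8.27 and 11 in wild-type fat on the HFD, all below the filter level. Marco stayed at 5.72, 7.14 and 1.93 in knockout and at 1.77, 20.9 and 1.18 in wild-type mice. For Timd4, which encodes the phosphatidylserine receptor TIM4, the values were 17.9, 10.9 and 14.1 against 10.4, 28.1 and 19.2. None of these 3 genes was bright enough to be tested in fat. Vsig4, a complement receptor that other resident macrophages also carry, was the Kupffer gene above the filter level, with 131, 82.9 and 174 against 71.3, 88.9 and 97.9. These values overlapped, and the difference of 0.53 ± 0.27 did not reach the threshold (adjusted p = 0.18).

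Genes that act in the same pathways also differed in fat on the HFD, in numbers that varied from list to list. The other 4 subunits of the phagocyte oxidase that were tested, Ncf4 (2.08 ± 0.29), Rac2 (2.0 ± 0.36), Ncf1 (1.90 ± 0.44) and Cyba (1.79 ± 0.28), all rose, as did all 3 C1q subunits, C1qc (1.48 ± 0.23), C1qb (1.38 ± 0.24) and C1qa (1.06 ± 0.23). Of 7 receptors, kinases and phosphatases that act with ITAM adaptors, 5 rose, among them Inpp5d (1.40 ± 0.22), Plcg2 (0.91 ± 0.15) and Btk (1.78 ± 0.36). Of 9 recruitment ligands and integrin partners, 4 rose, with Ccl8 (1.33 ± 0.23), Ccl2 (2.43 ± 0.45) and the β2 integrin chain Itgb2 (2.14 ± 0.41) of smallest p, and Vcam1 was at -0.07. Of 9 CSF1 axis and lineage factor genes 4 rose, with the transcription factor genes Irf8 (1.56 ± 0.22) and Runx1 (1.86 ± 0.28) and the receptor chain Csf2ra (1.76 ± 0.30) of smallest p. The ligands Csf1 and Il34 were at -0.14 and -0.29 without a call. Only 2 of 7 Toll-like receptors and adaptors rose, Tlr1 (2.29 ± 0.20) and Tlr7 (1.02 ± 0.30). Of 7 other Kupffer-enriched genes tested in fat, Hmox1, which degrades haem, rose by 1.64 ± 0.45 and Slc40a1, the iron exporter ferroportin, fell by 1.33 (SE 0.15).

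On the ND no member was called different between genotypes in fat, 0 of 33, where 0.215% of all genes were called higher and 0.0344% lower. By limma 7 of 33 members had an unadjusted p below 0.05, beside 1617 of all 11613 genes. Without mouse 687 Aif1 was called, at adjusted p = 0.00816. The median member difference was 0.43, beside 0.07 for all genes, and 29 of 33 were above 0. All knockout arrays lay above all wild-type arrays for 15 members (16.1% of all genes) and below them for 0 (7.11% of all genes). Csf1r came nearest to a call at 0.69 ± 0.14 (adjusted p = 0.081), with 1415, 1190 and 1598 in knockout and 784, 848 and 963 in wild-type mice. Ptprc, at 189, 167 and 220 against 110, 107 and 98.0, differed by 0.86 ± 0.25 (adjusted p = 0.172), and Cd163 and Lyve1 differed by 0.20 ± 0.27 and 0.23 ± 0.25 with overlapping groups. Aif1 was spread widely among the ND wild-type mice, at 710, 38.9 and 236, the high values coming from mice 686 and 690, whose fat held sperm genes.

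In fat the diet comparison moved most members, but every ND adipose array carried epididymis epithelium genes at a high level and the HFD arrays did not, so that diet and this tissue cannot be told apart in what follows. The Actb 3′ to 5′ log2 ratio was 1.44 ± 0.28 (SD, n = 3) on the HFD and 0.90 ± 0.02 on the ND in wild-type fat. In knockout fat it was 0.73 ± 0.10 and 0.80 ± 0.07. The Gapdh ratio was 0.10 and -0.36 in wild-type and -0.08 and -0.43 in knockout fat. The part of RNA quality was not tested. In wild-type mice 26 of 33 members were higher on the HFD and 2 lower, where 27.9% and 27.4% of all genes were called in these directions, and the median member was 1.68 higher, beside -0.03 for all genes. In knockout mice 27 rose and 1 fell, where 22.1% and 26.6% of all genes were called, with a median of 2.80 beside -0.08. Adgre1 rose by 1.88 ± 0.28 in wild-type and by 3.74 ± 0.28 in knockout mice and Cd68 by 2.03 ± 0.36 and 3.83 ± 0.36, while Itgax rose by 4.45 ± 0.41 in knockout mice. In ND wild-type fat Itgax lay under the filter level on average (12.6), so its rise there is stated as at least 3.59-fold. Msr1 was under it there too (18.45). Spi1, counted as a rise in both genotypes, lay under that level on the ND, at 12.7 in wild-type and 15.6 in knockout fat. It was tested because its HFD values raised its mean. The knockout median of 2.80 is the fitted value of Spi1, which is not its measured size. Among the resident genes Mrc1 rose by 1.68 ± 0.18 and 1.99 ± 0.18. Cd163 rose by 1.26 ± 0.27 in wild-type mice and was at 0.06 ± 0.27 in knockout mice, and Lyve1 rose by 1.63 ± 0.25 in wild-type mice and was at 0.32 ± 0.25 in knockout mice. Vsig4 rose in both, by 1.57 ± 0.27 and 2.32 ± 0.27. Without mice 686 and 690, 24 members rose and 2 fell in wild-type mice, and Aif1 went from -1.44 to 0.83, while Cd84 missed the threshold without mouse 547 (adjusted p = 0.0503, within 0.00349 to 0.143).

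Cd52 and Cx3cr1 were the members called lower on the HFD in fat. Cd52 read 4802, 7155 and 7443 in ND wild-type and 6204, 6440 and 5003 in ND knockout mice, above every HFD value in the same genotype. It fell by 3.96 on the log2 scale in wild-type mice (SE 0.39, adjusted p = 1.33e-05) and fell by 1.07 in knockout mice (SE 0.39, adjusted p = 0.0388). The second of these missed the threshold without mouse 428, 429, 718, 719 or 720 (adjusted p = 0.144, 0.0988, 0.0948, 0.103 and 0.0556, within 0.0101 to 0.144). Cx3cr1 read 29.3, 32.3 and 33.2 in ND wild-type mice, and fell by 0.90 in that genotype (SE 0.22, adjusted p = 0.00469), at least 1.64-fold lower on the HFD, but was at -0.11 ± 0.22 in knockout mice. Fcgr2b did not differ by diet beyond its error in either genotype, at -0.15 ± 0.16 and -0.10 ± 0.16.

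**Figure D2:**
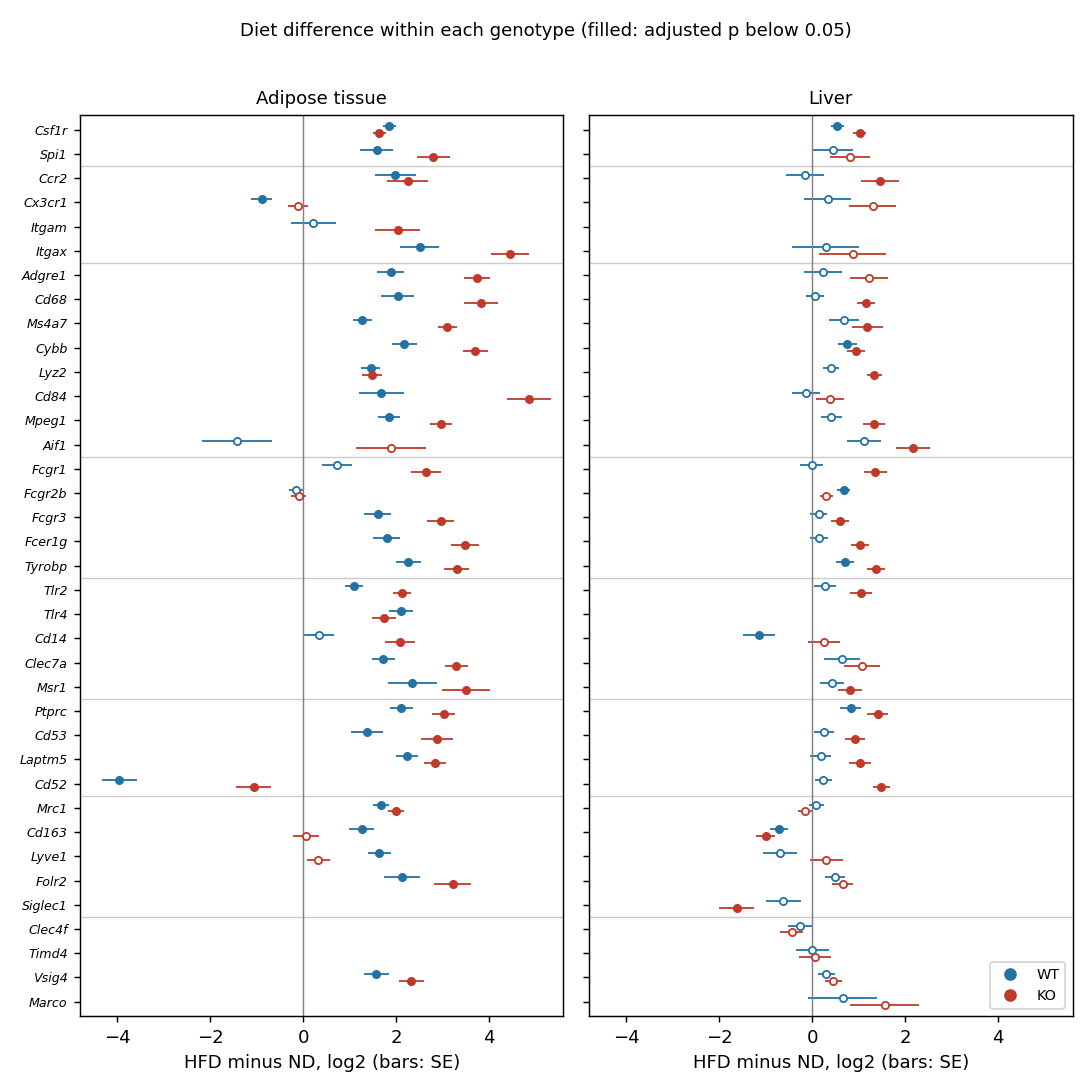
Log2 difference between HFD and ND (points, with SE bars) for each member in wild-type (blue) and knockout (red) mice, in adipose tissue on the left and liver on the right, filled where the adjusted p was below 0.05 and blank where a gene was untested. In fat 26 members rose in wild-type and 27 in knockout mice, and in liver 5 and 18 did, while Cd52 lies to the left in fat and Cd163 and Siglec1 to the left in knockout liver.

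The interaction of genotype and diet in fat asks whether the genotype difference was larger on the HFD than on the ND. It was called for 12 of 33 members, 11 higher and 1 lower, where 3.76% and 7.2% of all genes were called, and the median member was at 1.15 beside -0.06 for all genes. The 11 were Adgre1, Cd14, Cd52, Cd68, Cd84, Clec7a, Cybb, Fcer1g, Fcgr1, Ms4a7 and Tlr2, and the gene called lower was Lyve1, at -1.31 ± 0.35 (adjusted p = 0.037). Ms4a7 at 1.82 ± 0.29 (adjusted p = 0.00544), Cd52 at 2.88 ± 0.55 (0.011), Cd84 at 3.18 ± 0.68 (0.0166) and Adgre1 at 1.86 ± 0.40 (0.017) were called whichever single mouse was left out. Cd163, at -1.20 ± 0.38, did not reach the threshold (adjusted p = 0.0663), nor did Itgax (0.0556), whose ND wild-type mean lay under the filter level. The count was 5, 6, 4, 4, 4 and 6 without mouse 429, 546, 560, 718, 719 and 720 in turn, and 17 without mouse 547. It was 20 without mice 427 and 547 together and 3 without mice 686 and 690 together. As all ND arrays carried epididymis, what this tissue adds to the interaction cannot be told apart from the diet.

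The remaining 8 interaction calls were each lost when any 1 of several mice was left out. Tlr2 missed the threshold without any 1 of mice 428, 429, 546, 560, 687, 690, 718, 719 and 720 (adjusted p 0.0576 to 0.0861), and Cd68 without any 1 of the same mice (0.0579 to 0.108). Lyve1 missed it without 427, 429, 547, 560, 686, 690, 718, 719 or 720 (0.0585 to 0.0914). Fcer1g did so without 429, 546, 560, 690, 718, 719 or 720 (0.0525 to 0.067), and Fcgr1 and Cd14 without 429, 546, 560, 718, 719 or 720 (0.051 to 0.0636 and 0.0679 to 0.086). For Cybb the mice were 429, 560, 686, 718, 719 and 720 (0.0504 to 0.0641) and for Clec7a 546, 560, 718 and 719 (0.051 to 0.054). Over all alternatives the adjusted p ran as low as 0.006 for Clec7a and as high as 0.227 for Lyve1 among these 8 genes.

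In liver on the HFD, 8 of the 35 members tested were called different between genotypes. Of these 6 rose and 2 fell, where 3.73% of all genes were called higher and 2.98% lower. By limma 23 of 35 members had an unadjusted p below 0.05, beside 2596 of all 11125 genes. The median member was 0.66 higher, beside -0.03 for all genes. All knockout arrays lay above all wild-type arrays for 17 members (13.6% of all genes) and below them for 2 (15.7% of all genes). The 6 that rose were Cd52, Cd68, Lyz2, Ptprc, Fcer1g and Fcgr1, and the 2 that fell were the resident genes Cd163 and Siglec1. The members of the growth factor and recruited classes had no call, with Ccr2 at 1.38 ± 0.41 (adjusted p = 0.0614) and Csf1r at 0.31 ± 0.14. Itgax, also without a call, had the largest fitted difference of the 35, 1.47, with groups apart. It averaged 28.0 in knockout and 10.6, under the filter level, in wild-type liver. Cx3cr1 averaged 29.7 in knockout mice and 12.4, under the filter level, in wild-type mice. Its mean was at least 2.29-fold higher, but the groups overlapped and there was no call (adjusted p = 0.12). The ND means of Cx3cr1 were also under that level, at 11.7 in knockout and 9.30 in wild-type liver. Its other probe set, below the filter level, gave -0.59 on the HFD. Summed over all 37 members the signal was 10685 to 12353 in knockout and 7883 to 9632 in wild-type liver. The count of 8 fell to 2, 3, 3, 5 and 4 without mouse 427, 428, 546, 547 and 560 in turn. Calls over all genes went from 747 to 278, 553, 385, 404 and 683 in the same fits.

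**Figure D3:**
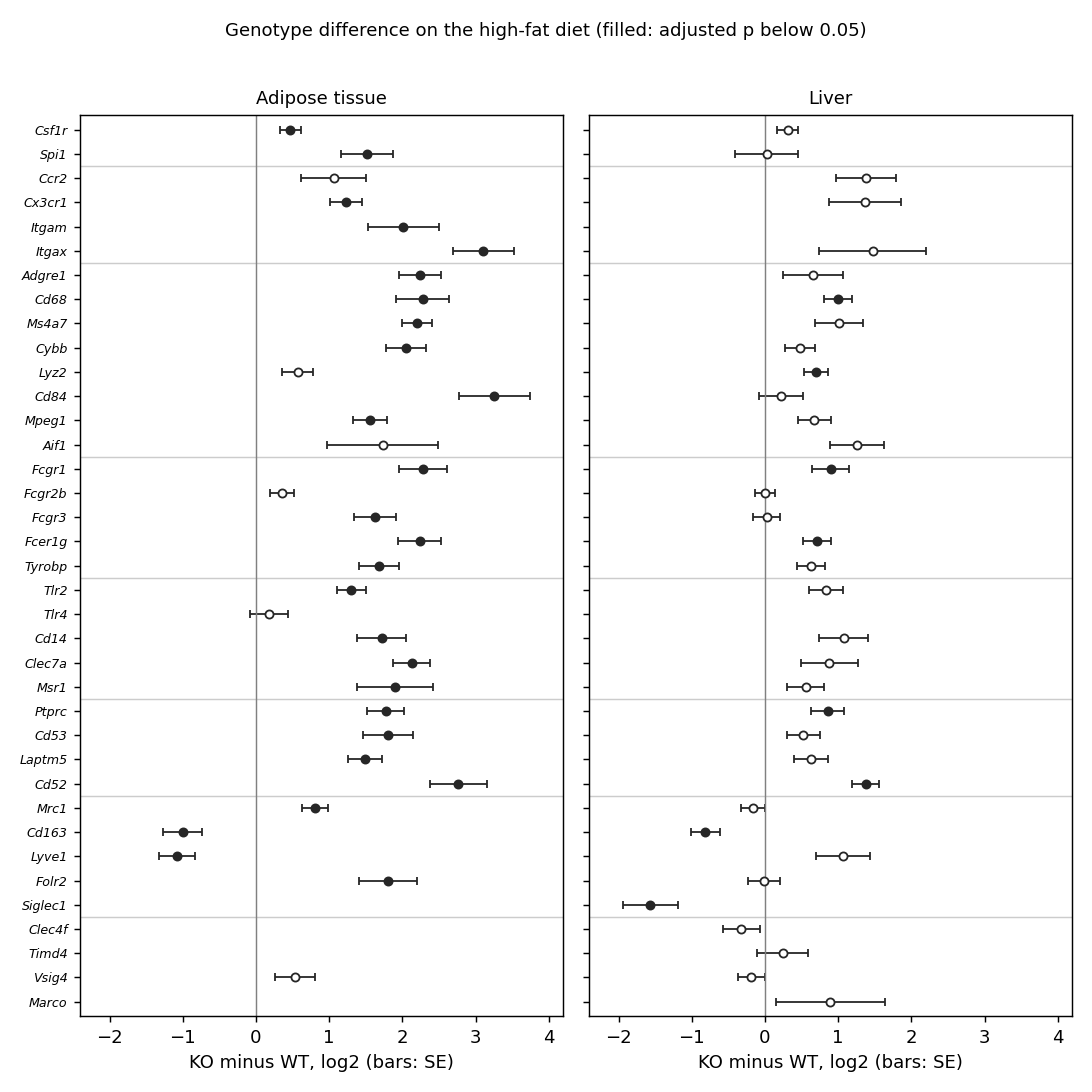
Log2 difference between knockout and wild-type mice on the HFD (points, with SE bars) for each member, in adipose tissue on the left and liver on the right, filled where the adjusted p was below 0.05 and blank where a gene was untested. In fat 25 members rose and 2 fell, in liver 6 rose and 2 fell, and Cd163 lies below 0 in both.

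Cd52 showed the clearest difference in liver, at 382, 424 and 288 in knockout and 134, 157 and 126 in wild-type mice. It was 1.38 ± 0.18 higher (adjusted p = 0.000906) and was called under every alternative run. Cd68 read 174, 113 and 132 against 59.6, 76.7 and 71.0, and was 1.0 ± 0.19 higher (adjusted p = 0.00934), missing the threshold without mouse 427 (0.0513, within 0.007 to 0.0513). Lyz2 read 1021, 892 and 894 against 491, 640 and 610, a rise of 0.70 ± 0.17 (adjusted p = 0.0279) that missed it without mouse 427, 428, 429 or 546 (0.12, 0.0534, 0.0605 and 0.107, within 0.0215 to 0.12). None of these 3 genes had overlapping groups. Ptprc at 315, 384 and 262 against 162, 212 and 156 rose by 0.86 ± 0.23 (adjusted p = 0.039), and missed the threshold without 427, 428, 546 or 560 (0.122, 0.117, 0.118 and 0.0939, within 0.0295 to 0.637).

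For the pair of Fc receptor genes the liver differences were near the threshold. Fcer1g read 309, 388 and 208 in knockout and 157, 195 and 187 in wild-type mice, apart by 0.71 ± 0.19 (adjusted p = 0.0438). Without mouse 427, 428, 546, 547 or 560 limma gave adjusted p = 0.148, 0.132, 0.142, 0.0779 and 0.0669, within 0.0081 to 0.148. Fcgr1 read 74.5, 88.1 and 59.7 against 33.3, 41.3 and 44.4, apart by 0.90 ± 0.25 (adjusted p = 0.0486), and it lost the call without any 1 of the 6 HFD mice (0.0573 to 0.15, within 0.0344 to 0.261). In fat the difference of both genes was above 2 on the log2 scale.

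**Figure D4:**
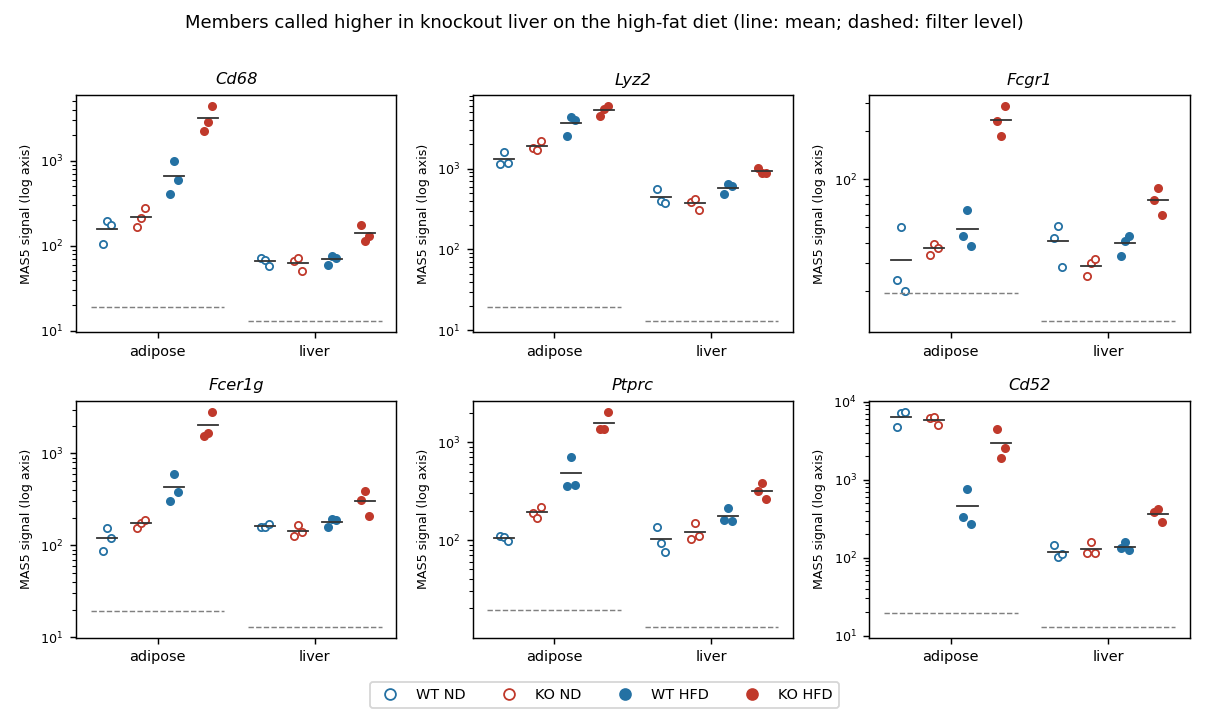
MAS5 signal (log axis) on every array of the 6 members called higher in knockout than in wild-type liver on the HFD, with ND as open and HFD as filled circles, wild-type in blue, knockout in red, group means as lines and the filter level dashed. In liver the 3 knockout HFD values stand above the 3 wild-type HFD values for each gene, and Cd52 is the gene whose ND adipose values (4802 to 7443) exceed its HFD values.

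Cd163 fell in knockout liver as it did in knockout fat. It read 104, 98.7 and 160 in knockout and 180, 264 and 189 in wild-type liver, with no overlap, and fell by 0.82 on the log2 scale (SE 0.20, adjusted p = 0.0292). The call was lost without mouse 427, 428 or 547 (adjusted p = 0.126, 0.092 and 0.11, within 0.0112 to 0.126). Siglec1 read 11.1, 4.90 and 6.59 against 21.5, 16.6 and 26.1, and fell by 1.57 (SE 0.38, adjusted p = 0.0266). The knockout values lay under the filter level of 13.0, so the fold is stated as at least 1.65-fold lower, and the call was lost without 428, 429, 546 or 560 (0.0738, 0.0685, 0.0752 and 0.0752, within 0.0211 to 0.0969). This Siglec1 probe set was not the one read in fat. The fat probe set gave -1.62 in liver with groups apart, and another gave 1.39 with overlapping groups, both with a mean below the filter level. Mrc1 read 405, 320 and 340 against 353, 425 and 415 (-0.17 ± 0.16), and Folr2 147, 115 and 128 against 114, 164 and 118 (-0.01 ± 0.22), both overlapping. Lyve1 read 388, 421 and 408 in knockout and 253, 288 and 100 in wild-type liver, apart but without a call (1.06 ± 0.36, adjusted p = 0.101).

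The Kupffer genes were bright in liver and did not reach the threshold between genotypes on either diet. On the HFD Clec4f read 530, 222 and 462 in knockout and 422, 518 and 484 in wild-type liver (-0.32 ± 0.25, adjusted p = 0.493). Vsig4 read 918, 676 and 706 against 787, 892 and 919 (-0.19 ± 0.18, adjusted p = 0.59). Timd4 read 43.4, 94.2 and 43.9 against 29.6, 63.6 and 57.6 (0.24 ± 0.35, adjusted p = 0.718). The groups overlapped for all 3. For Marco, a scavenger receptor for bacteria, the values were 69.4, 412 and 57.3 against 23.6, 87.1 and 125 (0.89 ± 0.74, adjusted p = 0.519), and knockout mouse 428 stood far above the rest. The same mouse also had the lowest Clec4f and the highest Timd4 of the HFD livers, and Adgre1 at 681 against 195 and 143 in the other 2 knockout livers.

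**Figure D5:**
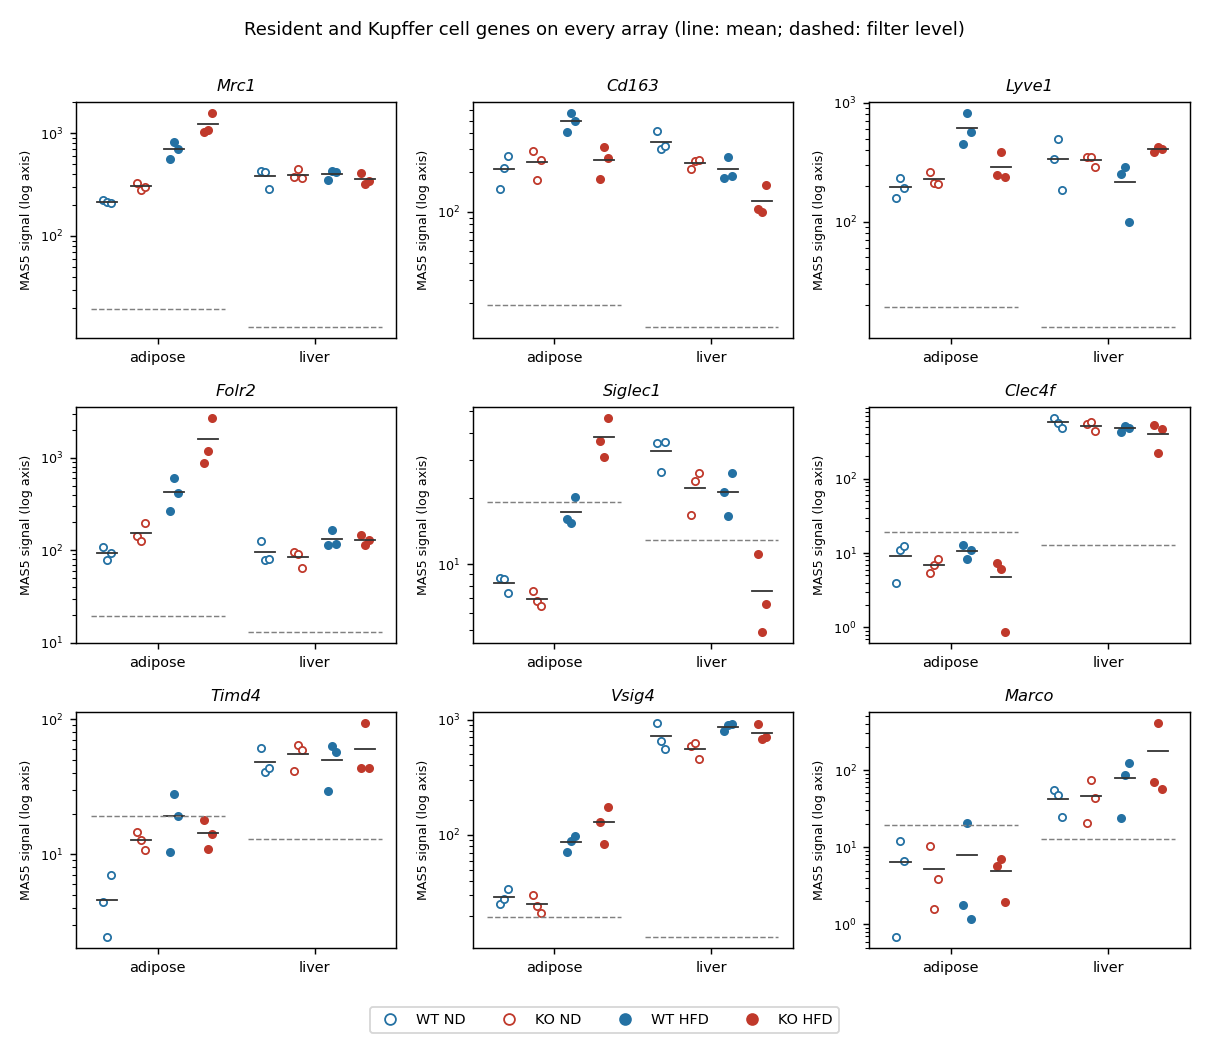
MAS5 signal (log axis) of the 5 resident and 4 Kupffer genes on every array, with ND as open and HFD as filled circles, wild-type in blue, knockout in red, group means as lines and the filter level of each tissue dashed. Cd163 is lowest in HFD knockout liver (98.7 to 160), Siglec1 lies under the liver filter level there and above the adipose one only on HFD arrays, and Clec4f, Timd4 and Marco are much brighter in liver than in fat.

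Other cell lists also differed between genotypes in liver on the HFD. Hepatocyte markers summed to 60626 to 67847 in knockout and 68929 to 77599 in wild-type mice, with 3 of 7 called lower and 1 higher. Of the 3 adipocyte-associated genes bright enough to test, Cidec, Fabp4 and Pparg, all 3 rose. The sum over the 7 genes of that list was 992 to 1226 in knockout and 318 to 381 in wild-type liver, with Lep, Retn and Slc2a4 below the filter level on every array of both groups. The 4 sinusoidal endothelial markers had 0 calls by limma, but their sum was 1162 to 1394 in knockout and 1565 to 1718 in wild-type mice. Neutrophil markers summed to 201 to 239 against 68.2 to 171, with 1 of 4 called higher (Csf3r). Fibroblast markers summed to 2131 to 2726 against 1659 to 2114, and dendritic cell markers to 50.1 to 70.9 against 75.5 to 93.0. The Actb 3′ to 5′ log2 ratio was 1.70 ± 0.01 (SD, n = 3) in knockout and 2.04 ± 0.05 in wild-type liver. The part of each in the member differences was not tested. Among the pathway lists, 1 of 4 oxidase subunits rose (Cyba, 0.82 ± 0.18), 0 of 3 C1q subunits, 0 of 9 CSF1 axis genes and 0 of 5 recruitment genes were called, and Tirap among the Toll-like receptor adaptors fell by 0.64 (SE 0.11). Of the 9 other Kupffer-enriched genes 1 was called, the complement gene C6, which fell by 0.90 (SE 0.14) and which hepatocytes also express.

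On the ND no member was called different between genotypes in liver, 0 of 35, where 2.22% of all genes were called higher and 2.49% lower. All knockout arrays lay below all wild-type arrays for 4 members and above them for 0. Over all genes 25.6% were apart in either direction. By limma 3 of 35 members had an unadjusted p below 0.05, beside 2339 of all 11125 genes. The median member was at -0.14 beside -0.05 for all genes, and without mouse 686 Fcgr2b was called (adjusted p = 0.0429). The resident gene Cd163 read 214, 247 and 251 in knockout and 416, 302 and 318 in wild-type liver, apart but without a call (-0.53 ± 0.20, adjusted p = 0.15). Siglec1 behaved in the same way, at 16.8, 24.1 and 26.1 against 35.7, 26.6 and 36.2 (-0.57 ± 0.38, adjusted p = 0.416). Clec4f averaged 519 and 572, Vsig4 560 and 717, Timd4 54.9 and 48.4 and Marco 45.7 and 42.7, all with overlapping groups.

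The HFD itself came with calls for more members in knockout than in wild-type liver, where epididymis epithelium genes summed to no more than 133 on any array. The Actb 3′ to 5′ log2 ratio differed by diet, at 2.04 ± 0.05 (SD, n = 3) on the HFD and 1.18 ± 0.07 on the ND in wild-type liver. In knockout liver it was 1.70 ± 0.01 and 1.29 ± 0.05. The Gapdh ratio was 0.03 and -0.32 in wild-type and -0.09 and -0.37 in knockout liver. The part of RNA quality in the diet differences was not tested. In wild-type mice 5 of 35 rose and 2 fell, where 6.47% of all genes were called higher and 6.04% lower, and the median member was 0.27 higher, beside -0.00287 for all genes. Those that rose were Ptprc (0.83 ± 0.23), Cybb (0.76 ± 0.20), Tyrobp (0.71 ± 0.19), Fcgr2b (0.67 ± 0.14) and Csf1r (0.54 ± 0.14). In knockout mice 18 rose and 2 fell, where 9.16% and 7.37% of all genes were called, with a median of 1.02 beside 0.02. The largest rises were Aif1 (2.17 ± 0.37), Cd52 (1.49 ± 0.18), Ccr2 (1.45 ± 0.41) and Ptprc (1.41 ± 0.23). Of the C1q genes 3 of 3 rose in knockout liver, C1qb by 0.93 ± 0.21, and 0 of 3 in wild-type liver. The difference between these 2 diet effects was called for 1 member alone, as given below.

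The members called lower in liver on the HFD were the resident genes Cd163 and Siglec1, and Cd14. Of the 5 resident genes 2 lay above 0 in each genotype, up to 0.49 in wild-type and 0.65 in knockout mice. Cd163 fell by 0.72 in wild-type (SE 0.20, adjusted p = 0.0338) and fell by 1.0 in knockout mice (SE 0.20, adjusted p = 0.00533), from means of 345 and 237 to 211 and 121. Siglec1 fell by 1.62 in knockout mice (SE 0.38, adjusted p = 0.0113), at least 1.72-fold lower, and was at -0.63 ± 0.38 in wild-type mice. Cd14 read 31.6, 70.4 and 58.9 in wild-type mice on the HFD and 86.2, 135 and 121 on the ND, and fell by 1.14 (SE 0.34, adjusted p = 0.043), against 0.25 ± 0.34 in knockout mice. No Kupffer gene was called for diet in either genotype, and Vsig4 in knockout mice, at 0.45 ± 0.18, came nearest (adjusted p = 0.112).

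Several of these liver diet calls depended on single mice. The wild-type count of 7 fell to 3, 3, 3, 3 and 1 without mouse 546, 547, 560, 687 and 690, and it was 9 without mouse 686. Calls over all genes went from 1392 to 745, 673, 1384, 840 and 1069 in these fits, and to 1229 without mouse 686. Cd14 missed the threshold without 546, 560, 687 or 690 (adjusted p 0.0508 to 0.154), Cd163 without 546, 560, 686 or 690 (0.0556 to 0.118), and Csf1r and Tyrobp without 547, 560, 687 or 690 (0.0539 to 0.109 and 0.0602 to 0.0994). Cybb and Ptprc missed it without 546, 547, 687 or 690 (0.0744 to 0.107 and 0.0633 to 0.124), whereas Fcgr2b was called without any single mouse. In knockout mice Msr1 lost its call without 427, 429, 718, 719 or 720 (0.0767 to 0.172), Fcgr3 without 427, 429, 718 or 720 (0.0606 to 0.165), Ccr2 without 427, 429, 718 or 719 (0.0612 to 0.104), Ms4a7 without 427, 428, 718 or 719 (0.0757 to 0.0885) and Cd53 without 718 or 720 (0.0526 to 0.0644). The knockout count of 20 was 12 when a gene's probe sets were averaged, where calls over all genes went from 1839 to 1259.

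The interaction of genotype and diet was called for 1 of 35 members in liver, Cd52, at 1.26 ± 0.26 (adjusted p = 0.0434), where 0.62% of all genes were called higher and 0.369% lower. The median member was at 0.58 beside 0.02 for all genes. By limma 12 of 35 members had an unadjusted p below 0.05, beside 1723 of all 11125 genes. Cd52 read 116, 157 and 116 in ND knockout and 145, 102 and 111 in ND wild-type liver, close to the 126 to 157 of HFD wild-type liver, so the 3 HFD knockout livers alone stood apart. The call was lost without any 1 of mice 427, 428, 546, 547, 560, 686, 687, 690, 718 and 720 (adjusted p 0.0522 to 0.107, within 0.0337 to 0.107). Lyz2 (0.93 ± 0.24), Fcgr1 (1.36 ± 0.35) and Cd68 (1.08 ± 0.27) were next, with adjusted p of 0.09, 0.091 and 0.0872.

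The genotype difference on the HFD was then compared directly between the tissues, which came from the same mice. Of 31 members tested in both, 6 were called in the same direction in both (Cd68, Fcgr1, Fcer1g, Ptprc, Cd52 and Cd163), 20 in fat alone and 1 in liver alone (Lyz2). This split was not made over all genes, so no share stands beside it. The difference between the tissues itself was called for 11 of 31, of which 10 were higher in fat and 1 lower, where 5.34% and 7.43% of all genes were called, and the median member was 1.05 higher in fat, beside -0.01 for all genes. Cd84 differed by 3.04 ± 0.59 (adjusted p = 0.00243), Fcgr3 by 1.60 ± 0.35, Cybb by 1.57 ± 0.35 and Fcer1g by 1.53 ± 0.37, and the resident genes Folr2 by 1.81 ± 0.47 and Mrc1 by 0.97 ± 0.25. Lyve1 was the member whose difference was lower in fat, at -2.15 ± 0.48 (adjusted p = 0.00611), as it was lower in knockout fat and at 1.06 ± 0.36 in knockout liver. Cd163 did not differ between the tissues beyond its error (-0.18 ± 0.35). With the mouse as a replicate block 8 were higher and 1 lower, and the calls of Cd68 and Ms4a7 were lost (adjusted p = 0.0631 and 0.08, within 0.0199 to 0.223 and 0.00311 to 0.303).

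Mouse 429, whose fat had the highest level of many members, weighed on this comparison between tissues. Without it the count of 11 fell to 3, and Cd52, Cd68, Cybb, Fcer1g, Fcgr1, Folr2, Mrc1 and Ms4a7 lost the call (adjusted p 0.0513 to 0.303). Without mouse 546 the count was 6 and without mouse 560 it was 7. Cd52 also lost it without 427, 546 or 560 (0.133, 0.143 and 0.144), Cd68 without 428, 546 or 560 (0.122, 0.141 and 0.138), Fcgr1 without 427, 546 or 560 (0.078, 0.0739 and 0.155), Ms4a7 without 546, 547 or 560 (0.132, 0.152 and 0.0584), and Folr2 without 546 (0.0578). Cd84, Fcgr3 and Lyve1 were called whichever mouse was left out.

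The level itself, averaged over the 4 groups of a tissue, was higher in liver than in fat for all 4 Kupffer genes. The ND adipose arrays in this average carried epididymis epithelium genes, and their part in the level was not tested. Vsig4 was higher by 3.76 ± 0.12 on the log2 scale. The other 3 lay below the filter level in fat, and against that level Clec4f was at least 24.8-fold, Marco at least 3.06-fold and Timd4 at least 2.66-fold higher in liver. Of 36 members tested, 6 were higher and 29 lower in liver, where 29.9% of all genes were called higher and 52.9% lower, and the median member was at -0.95 beside -0.32 for all genes. Among the members lower in liver were Cd52 (-3.94 ± 0.16), a gene that the epididymis also makes, Ms4a7 (-2.72 ± 0.14) and Cd68 (-2.67 ± 0.15). Tlr4, below the filter level in liver, was at least 5.19-fold lower there. Msr1 (1.16 ± 0.22) and Fcgr2b (0.26 ± 0.08) were the other members called higher in liver, and Lyve1 stood level at 0.03 ± 0.17. With quantile normalization Fcgr1 and Tlr2 changed direction, to 0.05 and 0.04. Aif1 and Mpeg1 lost the call without any 1 of mice 427, 429, 546, 547, 560, 690, 718, 719 and 720 (adjusted p 0.0505 to 0.0991) and of mice 428, 429, 547, 560, 687, 690 and 720 (0.0617 to 0.155).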

How the data were processed

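Total RNA of epididymal adipose tissue and liver from 12 mice was labelled with biotin and hybridised to Affymetrix mouse arrays, 1 per tissue and mouse, per the labels. The authors deposited 1 table of MAS5 signal intensity values for 45101 probe sets. The method is named in the submitters' processing notes, and its version and detection calls are not given in the sources used here. The values are linear and already scaled between arrays, and the lowest depend most on that processing. Of the probe sets, 34945 named 1 gene in the platform annotation, 932 several, 9160 none and 64 were controls. Those naming 1 gene were used, and 68 of them read the 37 members.

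The 10th percentile of each tissue's signals, 1.08 for fat and 1.1 for liver, served as a floor before conversion to log2. Models with 1 mean per group were fitted to the 12 arrays of a tissue (8 residual degrees of freedom), or to all 24 for comparisons between tissues, in limma 3.58.1 (R 4.3.3) with a variance trend. The p-values were adjusted over all tested genes by the Benjamini-Hochberg method, and all those quoted come from this test or its alternatives. Where 1 of 2 means lay below the filter level, the fold is stated as a bound against that level, and a fitted log2 value beside or plotted for such a gene is not its measured size. The 3 mice per group limit the precision. The scripts were tested on simulated data.

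Both tissues came from the same mice, so the mouse was also fitted as a block. Deviations from the group mean correlated at 0.0351 to 0.129 between the tissues of a mouse. The fits were repeated after quantile normalization, with every gene tested, with no floor or a pseudocount of 16, with probe sets averaged per gene or the brightest chosen over all arrays, with the trend left out, on the compared arrays alone, and without each mouse in turn. Leaving out pairs of mice from the adipose interaction and the wild-type diet comparison was chosen after seeing the data.

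The members, their classes and the lists of partner and marker genes were chosen with earlier results of these data known. Values on every array are given for the 2 members of smallest p per class in fat on the HFD, all resident and Kupffer genes, members called against the majority and members called between genotypes in liver, and each partner list is shown by up to 3 genes of smallest p and any called the other way. Other genes were named after their values were seen.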

Additional observations from a re-analysis of the deposited data

Results flagged for a closer look

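In adipose tissue 12 members had a genotype difference that depended on diet, by the interaction term of the fit. The log2 difference between knockout and wild-type mice was larger on the HFD than on the ND by 1.86 for Adgre1, 1.75 for Cd14, 2.88 for Cd52, 1.80 for Cd68 and 3.18 for Cd84. It was larger by 1.57 for Clec7a, 1.53 for Cybb, 1.69 for Fcer1g, 1.91 for Fcgr1, 1.82 for Ms4a7 and 1.03 for Tlr2. Lyve1, the resident gene, went the other way at -1.31. Epididymis genes were high on all ND adipose arrays, and their part in these values cannot be told apart from that of the diet.

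In liver the same term was called for Cd52, at 1.26. In the 3 HFD knockout livers Cd52 stood at 288 to 424, and in the other 9 livers at 102 to 157.

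The genotype difference on the HFD also differed between adipose tissue and liver for 11 members. It was larger in adipose tissue by 1.39 for Cd52, 1.28 for Cd68, 3.04 for Cd84, 1.57 for Cybb, 1.53 for Fcer1g, 1.38 for Fcgr1 and 1.60 for Fcgr3. Folr2, Mrc1 and Ms4a7 were larger there by 1.81, 0.97 and 1.18, and Lyve1 differed by -2.15.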

How the results depend on the processing

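Of 177 member values called over the 12 comparisons, 113 kept their call under every alternative run, 62 were lost under at least 1, and 2 of the level comparison turned under quantile normalization (Fcgr1 to 0.0544, Tlr2 to 0.0396). Aif1, not called in the wild-type adipose diet comparison, turned to 0.83 without mice 686 and 690. Of 230 values not called, 48 were called under an alternative. Leaving out 1 mouse at a time (1 array within a tissue, both arrays between tissues) gave 23 to 28 called members for knockout against wild-type fat on the HFD, 0 to 1 on the ND, 27 to 30 for diet in wild-type fat, 27 to 28 in knockout fat and 4 to 17 for the adipose interaction. In liver it gave 2 to 8 for genotype on the HFD, 0 to 1 on the ND, 1 to 9 for diet in wild-type, 15 to 20 in knockout mice and 0 to 1 for the interaction. Between tissues it gave 3 to 13 for the genotype difference and 33 to 35 for the level. The adipose interaction had 20 calls without mice 427 and 547 and 3 without 686 and 690. Over all genes these fits gave 1664 and 375 calls, beside 1273 in the main fit. The liver genotype comparison on the HFD had 4 calls without the filter, 5 with the mean of probe sets and 4 without the variance trend. Over all genes these fits gave 548, 503 and 477 calls, beside 747 in the main fit. Wild-type liver diet calls numbered 2, 1 and 2 with the mean of probe sets, without the trend and on the compared arrays alone, and knockout liver diet calls 12 with the mean of probe sets. Over all genes these fits gave 846, 944 and 629 calls in wild-type liver, beside 1392, and 1259 in knockout liver, beside 1839. The liver interaction had 0 calls without the filter, with the mean of probe sets and without the trend. The genotype difference between tissues had 18 calls with quantile normalization and 9 with the mouse as a replicate block, and the block left the level comparison at 35. The cause of these shifts was not tested. Signals near the filter level limit what can be said of Spi1, Cx3cr1, Itgam, Itgax, Msr1 and Siglec1, and of Ccr2 in liver.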

Other observations

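Partner genes of the members also differed with diet in liver. In knockout mice on the HFD, Cd5l, a secreted protein of Kupffer cells, rose by 1.27 ± 0.25 (SE, adjusted p = 0.00535), the platelet and Kupffer cell receptor gene Clec1b by 0.71 ± 0.16 (adjusted p = 0.0103) and the transcription factor gene Id3 by 1.18 ± 0.35 (adjusted p = 0.0365), while Nr1h3, which encodes LXRα, fell by 0.60 (SE 0.10, adjusted p = 0.00212). In wild-type mice Nr1h3 fell by 0.76 (SE 0.10, adjusted p = 0.000819), Hmox1 fell by 1.40 (SE 0.34, adjusted p = 0.0188) and C6 rose by 0.87 ± 0.14 (adjusted p = 0.00207). The integrin genes Itgb2 and Itgal rose in knockout liver, by 1.62 ± 0.29 and 1.07 ± 0.24, and were at 0.49 and 0.48 in wild-type liver without a call. These genes were named after their values were seen.

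In fat the interaction of genotype and diet was called for Il34, a ligand of CSF1R, at -0.95 ± 0.26 (adjusted p = 0.0381). On the opposite side it was called for the transcription factor genes Irf8 (1.35 ± 0.31, adjusted p = 0.0212) and Runx1 (1.64 ± 0.39, adjusted p = 0.0239). Slc40a1 was at -1.57 ± 0.21 (adjusted p = 0.0034).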
